A study of Homo sapiens with 12 samples.

Results

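The 34 genes described here encode enzymes that make, recycle, phosphorylate or break down purine and pyrimidine nucleotides. They were listed by name for their place in the pathways, with earlier results of these data known, and each symbol matched 1 Ensembl identifier among the 60664 genes of the count table. All 34 passed the filter on low counts, although PRPS2 and UPP1 passed it only through RS4;11, since both were at or under 3 counts in every TOM-1 library. RNA was measured by poly(A) RNA sequencing in a pair of human B-cell precursor acute lymphoblastic leukaemia lines with 3 libraries in each of 4 groups. TOM-1 is a line with the Philadelphia chromosome (BCR-ABL1), and RS4;11 is a line with a KMT2A rearrangement. Both are labelled as wild-type lymphoblasts and grew in RPMI medium with fetal bovine serum and antibiotics. The treated group of each line received ADI-PEG20, a pegylated arginine deiminase that degrades arginine in the medium, at 1000 ng/ml for 24 h, and the control group of the same line received none. Each line is 1 established cell line, so the groups describe these lines and not leukaemia subtypes. The labels do not say whether the libraries of a group came from separate cultures, and the p-values then measure only the spread between these libraries.

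Cells build pyrimidines from aspartate and carbamoyl phosphate and attach the ribose phosphate of PRPP afterwards, whereas purines are assembled step by step on PRPP from glycine, glutamine, aspartate and carbons carried by formyl folate, ending in inosine monophosphate (IMP). IMP is then converted to adenosine or guanosine monophosphate (AMP or GMP), and salvage enzymes return free bases and nucleosides to the nucleotide pools at lower cost. Dividing lymphoblasts use both routes, and several of these enzymes (DHODH, IMPDH2, HPRT1, SAMHD1, NT5C2, ADA) are targets of, or act on, drugs used in leukaemia or immune suppression.

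In TOM-1 most of these transcripts fell with ADI-PEG20. With all libraries, 23 of the 34 genes passed the test, 22 of them lower and 1, NT5C2, higher. Of all genes tested, 15.9% were lower and 15.9% higher. NME1 and DCTPP1 fell furthest among genes above 10 CPM, a count scaled to the library's total after TMM adjustment. Their treated libraries stood at 0.168 and 0.194 of the controls with all libraries and at 0.27 and 0.306 without TOM-1 control replicate 3, a library that stood apart. APRT moved most with that library, from 0.304 to 0.498 of the controls without it, while PAICS (0.432 and 0.451) and PFAS (0.446 and 0.384) moved little. In RS4;11 none of the 34 passed the test with or without that library, where 0% and 0.317% of all genes did. The difference between the lines itself passed for 14 genes, all lower, where 6.05% of all genes were lower. Without TOM-1 control replicate 3 it passed for 22 (21 lower and NT5C2 higher), where 14.7% of all genes were lower and 15.7% higher. It passed for 7 without treated TOM-1 replicate 1, a fit for which the share of all genes is not given here.

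A TOM-1 control library, replicate 3, stood apart from the others. It had counts for 14963 genes against 19857 to 21997 in the other 11 libraries. Ribosomal protein genes took 19.7% of its counts against 9.21% and 8.95% in the other TOM-1 controls and 5.91% to 6.06% in treated TOM-1. Every result is therefore given with all libraries and without this one. Of the 34 genes, 17 (50%) were higher in it than in both other TOM-1 controls and 14 (41.2%) were lower than in both, against 35.8% and 49.2% of all genes tested. The genes that were higher had a median exonic length of 3438 bases and those that were lower 5474.5 bases, and over all genes tested these medians were 3214 and 5288 bases. The part of this library in any result below was not tested beyond leaving it out. Total counts per library ran from 18958144 to 35956959. The 10 B-lymphoblast markers were present in every group (summed 6133 to 6896 CPM in TOM-1 controls, 6310 to 6556 in treated TOM-1, 2124 to 2286 in RS4;11 controls and 2285 to 2491 in treated RS4;11). HOXA9, HOXA10 and MEIS1 were at 0 in TOM-1 and summed to 220 to 244 CPM in RS4;11, and CD3D, CD3E, CD3G and CD2 were at or near 0 in both lines. With TRAC, the 5-gene T-cell list summed to 123 to 210 CPM in TOM-1 controls, 135 to 151 in treated TOM-1, 427 to 479 in RS4;11 controls and 424 to 457 in treated RS4;11, and its part in the results was not tested. The 6-gene myeloid list summed to 15.1 to 26.7 CPM in TOM-1 controls and 10.2 to 15.6 in treated TOM-1. In RS4;11 it summed to 15.7 to 20.8 in controls and 13.5 to 17.0 in treated libraries. The erythroid list reached at most 0.257 CPM and the stroma list at most 7.70. The part of these lists was not tested either. ASS1, the enzyme that lets cells rebuild arginine from citrulline, had 0 counts in the TOM-1 controls and 0 to 14 in treated TOM-1. It was at 161.5 ± 20.1 CPM (SD, n = 3) in RS4;11 controls and at 240.6 ± 29.7 in treated RS4;11, without overlap. In RS4;11 0% of all genes tested passed with all libraries.

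**Figure D1:**
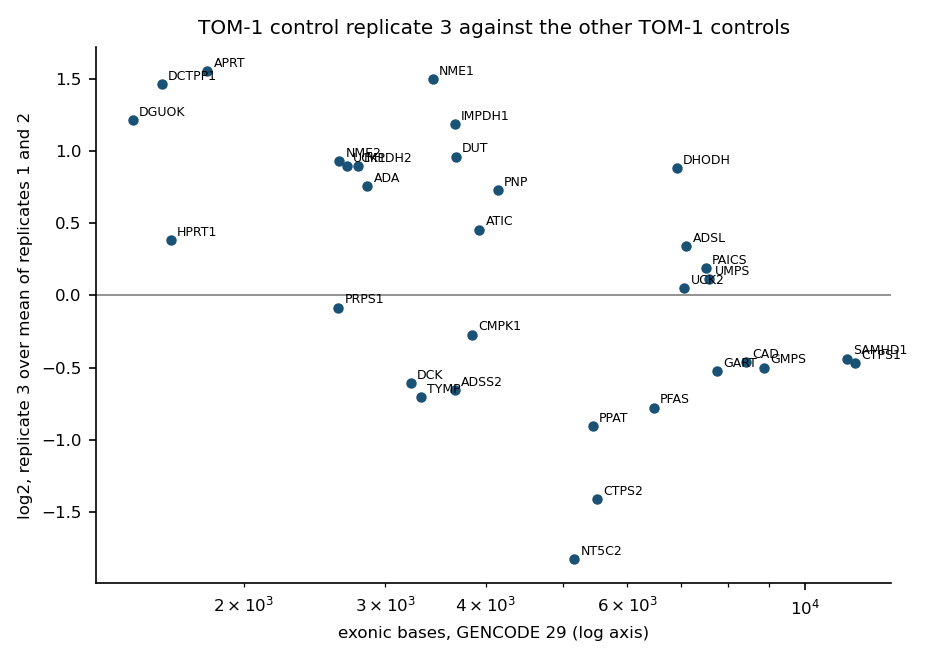
Each point is 1 of the 32 genes above 3 counts in TOM-1, with its exonic length on a log axis (bases, x) and the log2 ratio of TOM-1 control replicate 3 to the mean of replicates 1 and 2 (y). Points above 0 were higher in replicate 3 and sit mostly at shorter lengths, with DHODH, UMPS, PAICS, ADSL and UCK2 at longer ones. Over all lengths 17 genes were above both other controls and 14 were below both.

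Levels are TMM-scaled CPM, and fold changes are log2 values of ADI-PEG20 over control with their standard error (SE) from edgeR's quasi-likelihood fit. P-values are adjusted by Benjamini-Hochberg over the 17349 genes tested, or over 18321 without TOM-1 control replicate 3, and a gene is said to have passed, risen or fallen at an adjusted p under 0.05. With all libraries 15.9% of the genes tested were lower in treated TOM-1 and 15.9% were higher, and without replicate 3 these shares were 19.8% and 21.8%. The members' counts stand beside these. With all libraries 67.6% of the 34 passed in either direction, and without replicate 3 27 genes (79.4%) passed, 26 lower and 1 higher. The median log2 change of the 34 was -0.69 (-0.75 without replicate 3), and over the 32 genes above 3 counts in TOM-1 it was -0.70 (-0.80), while the median of all genes tested was 0.05 (0.00). Without overlap between the 3 control and the 3 treated libraries, 22 of the 34 were lower in treated TOM-1, where 20.1% of all genes tested were. Without replicate 3 there were 27, where 29.1% of all genes were. An exact permutation test of 3 libraries against 3 cannot go below a two-sided p of 0.1. In RNA from whole cultures, fewer cells of a type and less RNA per cell cannot be told apart.

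**Figure D2:**
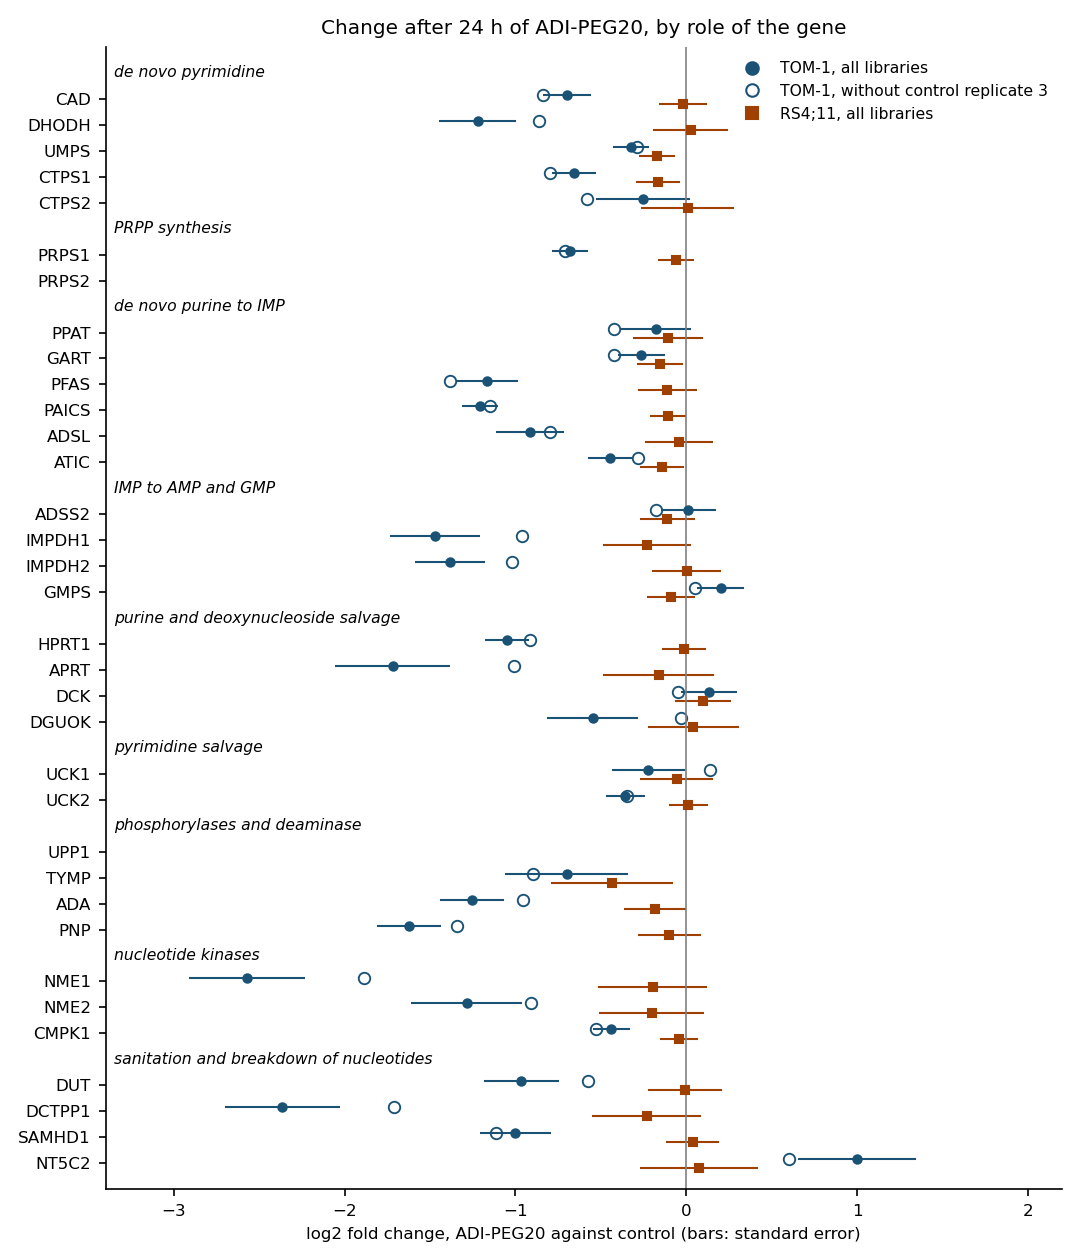
Log2 change with ADI-PEG20 over control (x, bars are SE) for 32 genes ordered by role, with filled circles for TOM-1 with all libraries, open circles for TOM-1 without control replicate 3 and squares for RS4;11. PRPS2 and UPP1 are not drawn because they were at or under 3 counts in TOM-1. The TOM-1 points lie to the left of 0 for 28 of the 32 genes with all libraries, and the RS4;11 points lie between -0.43 and 0.10.

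Pyrimidine synthesis fell at 4 of its 5 enzymes with all libraries and at all 5 without replicate 3. Of all genes tested, 15.9% and 19.8% were lower in these fits. CAD carries the first activities of the pathway (carbamoyl phosphate synthetase, aspartate transcarbamylase and dihydroorotase) and is the step that uses aspartate. Its gene lies at chr2:27217390-27243943 on the plus strand (GRCh38, GENCODE 29). The 250 bases before the RefSeq start of its transcript are shown because CAD opens the pathway, with capitals marking CCAAT read on the opposite strand (5′ to 3′, plus strand, GRCh38.p14, chr2:27217119-27217368).
CAD: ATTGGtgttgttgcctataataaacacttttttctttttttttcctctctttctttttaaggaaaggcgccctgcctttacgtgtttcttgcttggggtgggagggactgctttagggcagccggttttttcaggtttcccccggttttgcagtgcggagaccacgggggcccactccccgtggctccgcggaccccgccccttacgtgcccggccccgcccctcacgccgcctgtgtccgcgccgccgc
In control TOM-1 CAD was at 293, 287 and 210.2 CPM, and in treated TOM-1 at 173, 159.9 and 154. RS4;11 controls had 276, 266 and 289 CPM and treated RS4;11 246, 263 and 311. The treated TOM-1 libraries were all below the controls, while the RS4;11 groups overlapped. CAD fell by 0.70 ± 0.14 in TOM-1 (adjusted p = 0.00308, edgeR) and by 0.84 ± 0.08 without replicate 3 (adjusted p = 1.42e-08).

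DHODH, which oxidises dihydroorotate at the inner mitochondrial membrane, was at 24.4, 33 and 53 CPM in control TOM-1 and at 14.9, 17.1 and 15.3 in treated TOM-1. Its RS4;11 levels ran from 36.2 to 40.2 CPM over the 6 libraries. Replicate 3 was the highest of the TOM-1 controls, and the treated libraries stayed below all of them. DHODH fell by 1.22 ± 0.22 (adjusted p = 0.0017, edgeR) and fell by 0.86 ± 0.12 without replicate 3 (adjusted p = 5.7e-06). UMPS, which makes UMP from orotate, moved less. It was at 61.5, 59 and 65 CPM in control and 46.7, 51.2 and 50.3 in treated TOM-1, without overlap (log2 change -0.32 ± 0.10, adjusted p = 0.032, and -0.29 ± 0.08, adjusted p = 0.00539, without replicate 3). With any one treated TOM-1 library left out UMPS no longer passed (adjusted p from 0.0593 to 0.116). In RS4;11 UMPS was at 80.8, 81.3 and 78.4 CPM in control and 75.9, 69.6 and 68.1 in treated libraries, also without overlap, but the change of -0.17 ± 0.10 did not pass (adjusted p = 1).

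The CTP synthases turn UTP into CTP with glutamine. CTPS1, the form that proliferating lymphocytes depend on, was at 145, 149 and 106 CPM in control TOM-1 and at 86.9, 84 and 82 in treated TOM-1. Replicate 3 was the lowest control and still above every treated library (log2 change -0.66 ± 0.13, adjusted p = 0.00274, and -0.80 ± 0.07, adjusted p = 1.83e-09, without it). RS4;11 had 217, 209 and 195 CPM in control and 184, 189.8 and 179.9 after ADI-PEG20, without overlap (log2 change -0.17 ± 0.13, adjusted p = 1). CTPS2 depended on replicate 3, which had 7.28 CPM against 18.9 and 19.9 in the other controls and 12.8 to 13.1 in treated TOM-1. Its log2 change was -0.25 (adjusted p = 0.544) with all libraries, and without replicate 3 it fell by 0.58 (adjusted p = 0.00019).

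The enzymes that build IMP fell at 4 of 6 genes with all libraries and at all 6 without replicate 3. Over all genes tested the shares lower were 15.9% and 19.8%. PPAT, the committed amidotransferase of the pathway, and PAICS, a bifunctional enzyme that adds carbon dioxide and then aspartate, are neighbours on chromosome 4 and start back to back in GENCODE 29. PPAT runs from 56435615 leftwards on the minus strand (chr4:56393362-56435615) and PAICS from 56435741 rightwards (chr4:56435741-56464579). The 125 bases between the starts are shown because a single stretch of DNA lies before both genes (5′ to 3′, plus strand, GRCh38.p14, chr4:56435616-56435740). No searched motif lay in it, so it has no capitals.
PPAT and PAICS: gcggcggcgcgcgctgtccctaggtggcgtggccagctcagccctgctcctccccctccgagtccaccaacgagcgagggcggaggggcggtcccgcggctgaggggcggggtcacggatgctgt
An E-box, CACGTG, lay 182 bases before the PPAT start at chr4:56435792-56435797, within the PAICS transcript. PAICS was at 561, 526 and 618 CPM in control TOM-1 and at 247, 247 and 243 in treated TOM-1, and all 3 treated libraries were below every control. In RS4;11 it was at 707, 688 and 633 CPM in control and 636, 666 and 581 in treated libraries, which overlapped. PAICS fell by 1.21 ± 0.11 (adjusted p = 1.35e-05, edgeR) and by 1.15 ± 0.06 without replicate 3 (adjusted p = 3.75e-12). PPAT was at 96.4, 99.5 and 52.2 CPM in control and at 75.6, 78.8 and 65.4 in treated TOM-1. Replicate 3 was below the treated libraries and the other controls above them (log2 change -0.18 ± 0.21, adjusted p = 0.571, with all libraries). Without replicate 3 PPAT fell by 0.42 ± 0.09 (adjusted p = 0.000561), a smaller value than that of PAICS, though the difference between these genes was not tested. In RS4;11 PPAT ran from 94.6 to 115 CPM over the 6 libraries.

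GART, a trifunctional enzyme of the early steps that uses formyl folate, was at 182, 180.2 and 126 CPM in control TOM-1 and at 141, 132 and 133 in treated TOM-1. As for PPAT, replicate 3 lay below the treated libraries (log2 change -0.26 ± 0.14, adjusted p = 0.167), and without it GART fell by 0.42 ± 0.06 (adjusted p = 9.41e-06). RS4;11 had 226, 212 and 206 CPM in control and 195, 196 and 187 in treated libraries, without overlap (log2 change -0.15 ± 0.14, adjusted p = 1). PFAS, which takes its nitrogen from glutamine, was at 211, 214 and 124 CPM in control TOM-1 and at 77.2, 86.6 and 80.9 in treated TOM-1. Replicate 3 was again the lowest control, and here it stayed above the treated libraries. PFAS fell by 1.16 ± 0.18 (adjusted p = 0.000508, edgeR) and by 1.38 ± 0.07 without replicate 3 (adjusted p = 3.59e-13). In RS4;11 PFAS was at 263 ± 14.7 CPM in control and 244 ± 5.35 in treated libraries (SD, n = 3), which met without overlap (log2 change -0.11 ± 0.17, adjusted p = 1).

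ADSL, the lyase that releases fumarate both on the way to IMP and on the way to AMP, was at 14.8, 19 and 21.4 CPM in control TOM-1 and at 8.43, 9.24 and 11.5 in treated TOM-1. ADSL fell by 0.92 ± 0.20 (adjusted p = 0.00462, edgeR) and fell by 0.79 ± 0.18 without replicate 3 (adjusted p = 0.00104). In RS4;11 it ran from 12 to 17.9 CPM. Another gene of the same strand, AL022238.4, covers 18.9% of its exonic bases, so its counts are uncertain. ATIC, the last enzyme before IMP and the second user of formyl folate, fell by 0.45 (adjusted p = 0.0207), and by 0.28 without replicate 3 (adjusted p = 0.00105). Without treated TOM-1 replicate 2 or replicate 3 ATIC did not pass (adjusted p = 0.0562 and 0.0643). Its RS4;11 controls (247 ± 0.482 CPM) and treated libraries (224 ± 7.98) did not overlap.

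Of the 4 enzymes behind IMP, 2 fell in TOM-1 and 2 did not pass. IMPDH1 and IMPDH2, the isozymes of the rate-limiting step to GMP, were the ones that fell. Over all genes tested 15.9% were lower with all libraries and 19.8% without replicate 3. IMPDH2 was at 449, 407 and 798 CPM in control and at 204, 215 and 216 in treated TOM-1, and per kilobase of exon it had the highest level of the 34 genes in each of the 4 groups. RS4;11 had 497, 509.5 and 503 CPM in control and 516, 518 and 478 after ADI-PEG20, which overlapped. IMPDH2 fell by 1.38 ± 0.21 (adjusted p = 0.000442, edgeR) and by 1.02 ± 0.06 without replicate 3 (adjusted p = 8.97e-12). IMPDH1 was at 113, 111 and 255 CPM in control and at 62.5, 56.9 and 53.1 in treated TOM-1. Its log2 change of -1.47 ± 0.26 (adjusted p = 0.00143) became -0.96 ± 0.07 (adjusted p = 3.88e-10) without the high replicate 3, so that treated libraries stood at 0.361 or 0.513 of the controls. In RS4;11 IMPDH1 was at 231, 233 and 216 CPM in control and 198, 194 and 187 in treated libraries. These did not overlap, and the change of -0.23 did not pass in either edgeR fit (adjusted p = 1, and 0.104 without replicate 3). GMPS, which adds the amino group of GMP, did not pass (log2 change 0.20, adjusted p = 0.305, and 0.05 without replicate 3). ADSS2, which joins aspartate to IMP on the way to AMP, was at 109, 100.1 and 66.2 CPM in control and at 95, 94.5 and 87.8 in treated TOM-1. It did not pass with all libraries (log2 change 0.01 ± 0.16, adjusted p = 0.994) or without replicate 3 (-0.18 ± 0.08, adjusted p = 0.0701), and its RS4;11 levels ran from 108 to 131 CPM. Grouped by substrate, 2 of the 3 enzymes that use aspartate fell (CAD and PAICS, in both fits). Of the 6 that use glutamine 3 fell with all libraries and 5 without replicate 3, and of the formyl folate users 1 of 2 and 2 of 2. CAD counts in both the aspartate and the glutamine group. These small groups stand beside the same 15.9% and 19.8% of all genes, and a difference between them was not tested.

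PRPP, the ribose donor shared by both routes, is made by PRPS1 and PRPS2. PRPS1 was at 91.8, 85.4 and 83.5 CPM in control TOM-1 and at 56.3, 53.9 and 52.6 in treated TOM-1, with no overlap and little spread in either group. RS4;11 had 127, 127 and 112 CPM in control and 121, 120.1 and 109.7 in treated libraries. PRPS1 fell by 0.68 ± 0.11 in TOM-1 (adjusted p = 0.000608, edgeR) and by 0.71 ± 0.08 without replicate 3 (adjusted p = 1.47e-07). PRPS2 had 0 counts in the TOM-1 controls and at most 2 in a treated library, against 61.8 ± 9.67 CPM (SD, n = 3) in RS4;11 controls and 64.6 ± 1.64 in treated RS4;11. Against a floor of 3 counts per library, PRPS2 was at least 504-fold higher in RS4;11 control culture, and PRPS1 was the only one of the pair above the floor in TOM-1.

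**Figure D3:**
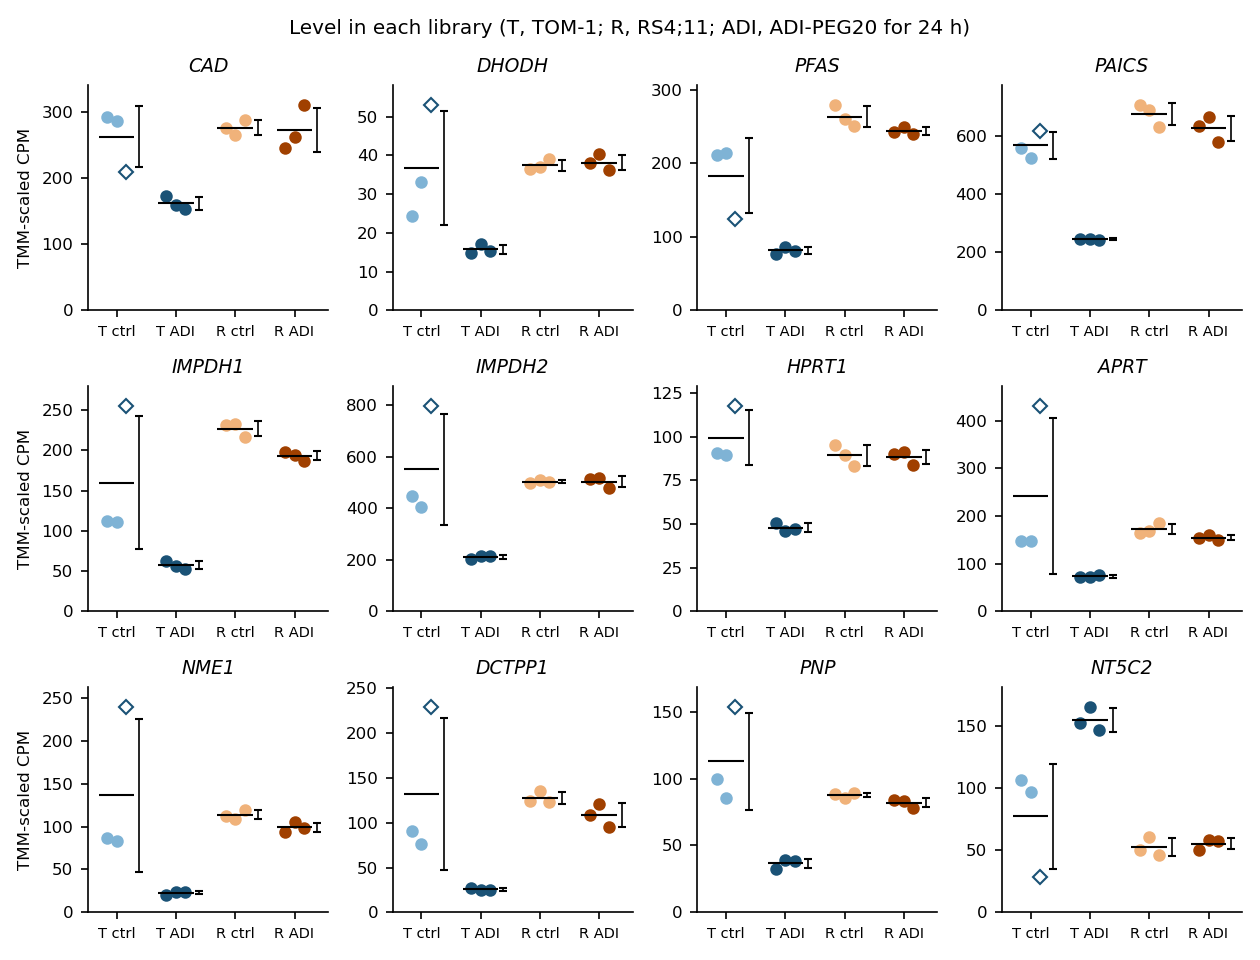
TMM-scaled CPM (y, linear axis from 0) of 12 genes in each library of the 4 groups, with a line at the mean and a bar for the SD (n = 3). The open diamond is TOM-1 control replicate 3, which sits above the other controls for genes such as APRT and NME1 and below them for PFAS and CAD. IMPDH2 is at 204 to 216 CPM in treated TOM-1 against 407 to 798 in the controls. The 12 genes are a selection and do not stand for the whole set. Of all 34 genes, 22 were lower in treated TOM-1 without overlap, where 20.1% of all genes tested were.

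Of the enzymes that recover bases and deoxynucleosides, the phosphoribosyltransferases fell and the deoxynucleoside kinases did not pass. HPRT1, which salvages hypoxanthine and guanine, was at 90.9, 89.7 and 118 CPM in control TOM-1 and at 50.8, 46 and 47.2 in treated TOM-1. It ranged from 83.2 to 95.5 CPM over the RS4;11 libraries, close to the TOM-1 control level. HPRT1 fell by 1.05 ± 0.13 (adjusted p = 0.000136, edgeR) and by 0.92 ± 0.08 without replicate 3 (adjusted p = 4.35e-09), although it is often used as a reference gene for relative quantification. APRT, the adenine counterpart, was at 147, 147 and 431 CPM in control and at 71.8, 71.1 and 76.9 in treated TOM-1. Its log2 change was -1.72 ± 0.34 with the high replicate 3 (adjusted p = 0.00244) and -1.01 ± 0.07 without it (adjusted p = 1.04e-10), so that treated libraries stood at 0.304 or 0.498 of the controls. RS4;11 had 165, 168 and 186 CPM in control and 154, 159.5 and 151 in treated libraries, without overlap (log2 change -0.16, adjusted p = 1). DCK, which activates cytarabine and other deoxynucleoside drugs, had log2 changes of 0.13 and -0.05 (adjusted p = 0.598 and 0.735 without replicate 3). DGUOK, its mitochondrial relative, had log2 changes of -0.55 and -0.03 (adjusted p = 0.143 and 0.856), and it passed only without TOM-1 control replicate 2 (-0.83, adjusted p = 0.0164).

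For pyrimidine nucleosides, UCK2 fell by 0.36 (adjusted p = 0.0316, edgeR) and by 0.34 without replicate 3 (adjusted p = 0.00279). It lost the call without TOM-1 control replicate 1, treated TOM-1 replicate 2 or 3, or RS4;11 control replicate 1 (adjusted p from 0.0506 to 0.107). UCK1 did not pass and turned sign with replicate 3 (log2 change -0.22, adjusted p = 0.481, and 0.14 without it). Both phosphorylate uridine and cytidine.

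The phosphorylases and the deaminase work on nucleosides. PNP, which splits inosine and guanosine into base and ribose phosphate, was at 99.8, 85.1 and 153 CPM in control TOM-1 and at 32.4, 39 and 38.2 in treated TOM-1. Each treated library was below every control, with replicate 3 the highest. AL355075.3 lies over 11.9% of the exonic bases of PNP on the opposite strand. PNP fell by 1.62 ± 0.19 (adjusted p = 9.35e-05, edgeR) and by 1.34 ± 0.09 without replicate 3 (adjusted p = 7.33e-11). In RS4;11 it was at 88.4, 85.9 and 89 CPM in control and 84.1, 83.4 and 78.2 in treated libraries, without overlap but by a log2 change of only -0.10 (adjusted p = 1). ADA, the deaminase whose loss causes a severe immune deficiency, was at 109, 106 and 181 CPM in control and at 49.1, 59.5 and 57.1 in treated TOM-1. It fell by 1.25 ± 0.19 (adjusted p = 0.000435) and by 0.96 ± 0.08 without replicate 3 (adjusted p = 9.86e-10). RS4;11 had 209, 211 and 209.9 CPM of ADA in control and 186, 193 and 176 in treated libraries, without overlap (log2 change -0.18, adjusted p = 1). TYMP, the thymidine phosphorylase, was low in both lines (4.08 ± 1.05 CPM in TOM-1 controls) and did not pass with all libraries (adjusted p = 0.163). TYMP passed without control replicate 3 (log2 change -0.90, adjusted p = 0.0394) and without treated replicate 1 (-1.17, adjusted p = 0.0386). ODF3B shares 20.7% of its exonic bases on the same strand. UPP1, the uridine phosphorylase, had 0 counts in all TOM-1 libraries and 0.347 ± 0.238 CPM (SD, n = 3) in RS4;11 controls.

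The kinases that complete nucleoside di- and triphosphates fell at 3 of 3 genes. Of all genes tested, 15.9% were lower with all libraries and 19.8% without replicate 3. NME1 and NME2 encode the main nucleoside diphosphate kinases and lie next to each other on chromosome 17. The 227 bases before the NME1 transcript (chr17:51153536-51162428, plus strand) are shown because NME1 fell furthest of the 34 genes, with capitals marking CCAAT (5′ to 3′, plus strand, GRCh38.p14, chr17:51153309-51153535).
NME1: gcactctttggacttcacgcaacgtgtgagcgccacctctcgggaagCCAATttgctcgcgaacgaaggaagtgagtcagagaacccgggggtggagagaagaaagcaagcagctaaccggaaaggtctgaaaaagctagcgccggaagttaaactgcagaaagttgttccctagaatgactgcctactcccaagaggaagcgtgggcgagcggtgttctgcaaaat
NME1 was at 86.5, 83.1 and 239 CPM in control TOM-1 and at 20.8, 23.8 and 24.2 in treated TOM-1. RS4;11 had 113, 109 and 119 CPM in control and 93.9, 105 and 98.8 in treated libraries, a small gap without overlap. NME1 fell by 2.57 ± 0.34 (adjusted p = 0.000208, edgeR), and by 1.89 ± 0.08 without replicate 3 (adjusted p = 1.05e-13), to 0.168 and 0.27 of the control level. Replicate 3 had 2.82 times the mean NME1 level of the other controls, and NME1 passed with and without it. NME2 was counted at far lower levels, 3.32, 4.13 and 7.12 CPM in control and 1.54, 2.02 and 2.36 in treated TOM-1. It fell by 1.28 ± 0.32 (adjusted p = 0.0103) and by 0.91 ± 0.28 without replicate 3 (adjusted p = 0.0124). In RS4;11 NME2 ranged from 5.93 to 10.7 CPM. The readthrough gene NME1-NME2 covers 18.6% of the exonic bases of NME1 and 22.9% of those of NME2 on the same strand and was itself at 0.818 ± 0.35 CPM in TOM-1 controls and at 0 or 1 count in treated TOM-1, so the split of reads between the 3 rows is uncertain and was not tested. CMPK1, the UMP and CMP kinase, fell by 0.44 (adjusted p = 0.00964) and by 0.53 without replicate 3 (adjusted p = 7.3e-07).

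Enzymes that remove nucleotides fell at 3 of 4 genes and rose at 1. Among all genes tested 15.9% were lower and 15.9% higher, and 19.8% and 21.8% without replicate 3. DCTPP1, which hydrolyses dCTP and its modified forms, was at 90.5, 76.2 and 229 CPM in control TOM-1 and at 27.3, 24.8 and 24.7 in treated TOM-1. Replicate 3 was again far above the other controls. DCTPP1 fell by 2.36 ± 0.34 (adjusted p = 0.000329, edgeR) and by 1.71 ± 0.10 without replicate 3 (adjusted p = 8.72e-12). RS4;11 had 124, 135 and 123 CPM in control and 109, 121 and 94.9 in treated libraries, just without overlap (log2 change -0.23, adjusted p = 1). ZNF771 lies over 42.1% of its exonic bases on the opposite strand, and whether strand was used in counting is not given in the sources used here. DUT, which keeps dUTP out of DNA, fell by 0.96 (adjusted p = 0.00564) and by 0.57 without replicate 3 (adjusted p = 5.95e-07), and AC023355.1 lies over 14.5% of its exonic bases on the opposite strand. SAMHD1, the dNTP hydrolase that also inactivates cytarabine triphosphate, was at 2.05, 1.99 and 1.49 CPM in control TOM-1 and at 0.642, 1.18 and 0.944 in treated TOM-1. These are 27 to 72 counts against 15 to 31, and SAMHD1 fell to 0.5 of its control level (SE 0.21 on the log2 scale, adjusted p = 0.00357; log2 change -1.11 ± 0.22, adjusted p = 0.000216, without replicate 3). SAMHD1 in RS4;11 ran from 103 to 121 CPM over the 6 libraries, and TLDC2 lies over 10.3% of its exonic bases on the opposite strand. NT5C2, a nucleotidase of IMP and GMP known for relapse mutations that give thiopurine resistance, is named here after its values were seen, as the single gene that rose. It was at 106, 97.2 and 28.7 CPM in control TOM-1 and at 153, 165 and 147 in treated TOM-1. Every treated library was above every control, and replicate 3 was the lowest (log2 change 1.00 ± 0.35, adjusted p = 0.045, and 0.60 ± 0.10, adjusted p = 2.24e-05, without it). That call was lost when any single treated TOM-1 or any RS4;11 library was left out of the fit (adjusted p from 0.0652 to 0.122). CNNM2 lies over 36.7% of the exonic bases of NT5C2 on the opposite strand.

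Summed over the 34 genes, the libraries held 4311, 4142 and 5325 CPM in control TOM-1 and 2724, 2751 and 2622 in treated TOM-1. RS4;11 held 5344, 5257 and 5028 CPM in control and 4950, 5083 and 4743 in treated libraries. The TMM-scaled sum, which is not a plain share of reads, was thus lower in each treated TOM-1 library than in every other library. On this scale the RS4;11 groups overlapped. On the scale of CPM per kilobase of exon, IMPDH2 went from 199 in TOM-1 controls (154 without replicate 3) to 76.3 in treated TOM-1. Without replicate 3 the order of levels in control TOM-1 began with IMPDH2, APRT, DCK, PAICS and CMPK1, and in treated TOM-1 it began with IMPDH2, DCK, CMPK1, DUT and APRT. DCTPP1 moved from rank 8 to rank 17 of the 34 genes and NME1 from 17 to 25, while NT5C2 moved from 21 to 7.

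In RS4;11, where 0% of all genes tested passed with all libraries and 0.317% (58 genes) without TOM-1 control replicate 3, none of the 34 genes passed in either fit. At an unadjusted p under 0.05 edgeR called 0 of the 34 with all libraries and 9 without replicate 3, all lower, against 1.87% and 12% of all genes. DESeq2 called 0 of the 34 with all libraries. It called 1, IMPDH1, without replicate 3 (adjusted p = 0.0289), in a fit that called 403 of 31318 genes, as did edgeR with the replicate number as a block (adjusted p = 0.0334). Over the 32 genes above 3 counts in TOM-1 the log2 changes ran from -0.43 to 0.10 with a median of -0.09, and 24 of the 32 were below 0. In 11 of the 34 genes the treated RS4;11 libraries were all below the controls (UMPS, CTPS1, GART, PFAS, ATIC, IMPDH1, APRT, NME1, DCTPP1, ADA and PNP), where 9.05% of all genes tested were, and in 0 genes were they all above.

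The difference of the effect, TOM-1 minus RS4;11, was tested as an interaction. It passed lower for 6.05% of all genes tested and higher for 5.89% with all libraries, and for 14.7% and 15.7% without replicate 3. Among the 34 genes, 14 passed with all libraries (41.2%), all lower. They were CAD and DHODH of pyrimidine synthesis, PFAS and PAICS of purine synthesis, IMPDH1, IMPDH2, PRPS1, HPRT1 and APRT, NME1, DCTPP1, ADA, PNP and SAMHD1. The sizes ran from -0.62 ± 0.15 for PRPS1 (adjusted p = 0.0197, edgeR) to -2.37 ± 0.46 for NME1 (adjusted p = 0.00702). Without replicate 3 it passed for 22 genes, 21 lower and NT5C2 higher, with NME1 at -1.69 ± 0.11 (adjusted p = 1.79e-10). UMPS, ADSL, CTPS1, DUT, ATIC, NME2, CMPK1 and UCK2 fell in TOM-1 with all libraries and did not pass for the difference in that fit, so their effects are not shown to differ between the lines there. The count of 14 became 7 without treated TOM-1 replicate 1, 8 without treated TOM-1 replicate 3 or treated RS4;11 replicate 1 or 2, and 9 without RS4;11 control replicate 1 or 2. The shares of all genes in these fits are not given here. PAICS, IMPDH2, HPRT1, NME1, DCTPP1 and PNP passed in every one of the alternatives fixed with the design. CAD lost the call without any one of the 11 other libraries (adjusted p from 0.0585 to 0.104), APRT and IMPDH1 without any one treated TOM-1 or RS4;11 library (from 0.083 to 0.109 and from 0.0782 to 0.106). DHODH, SAMHD1, PRPS1, ADA and PFAS lost it in 6, 6, 4, 3 and 1 such fits, at adjusted p values of 0.0504 to 0.0635. The median difference over the 32 genes was -0.65 with all libraries and -0.64 without replicate 3.

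In control culture TOM-1 and RS4;11 were compared without drug, where 18.4% of all genes tested were lower in TOM-1 and 16.2% higher with all libraries, and 27.5% and 25.4% without replicate 3. Of the 34 genes, 12 were lower in TOM-1, with PRPS2 and UPP1 at the floor among them, and 1, CMPK1, higher. Without replicate 3, 23 were lower and 3 higher (CMPK1, DCK and NT5C2). SAMHD1 had the largest difference above the floor, 1.84 ± 0.306 CPM in TOM-1 against 112 ± 8.74 in RS4;11 (log2 difference -5.91 ± 0.20, adjusted p = 4.85e-09, edgeR). ATIC was at 111 ± 21.5 CPM in TOM-1 and 247 ± 0.482 in RS4;11 (-1.16 ± 0.13, adjusted p = 2.27e-05). CTPS2 was lower in TOM-1 by more than ATIC with all libraries (-1.23, adjusted p = 0.00432, edgeR, and -0.90 without replicate 3). CTPS1 (-0.64, adjusted p = 0.00235), ADA (-0.67, adjusted p = 0.0131) and PRPS1 (-0.48, adjusted p = 0.00349) were also lower in TOM-1. GART (-0.40, adjusted p = 0.0401) and PFAS (-0.53, adjusted p = 0.0352) were lower too, but lost the call in 7 and 5 of the 11 fits without another library, and UMPS (-0.37) and UCK2 (-0.40) lost it without RS4;11 control replicate 1 (adjusted p = 0.054 and 0.0643). CMPK1 was at 254 ± 27 CPM in TOM-1 and 165 ± 7.89 in RS4;11 (0.63 ± 0.11, adjusted p = 0.000772). For IMPDH2, APRT, NME1, DCTPP1 and DGUOK the direction turned with replicate 3, and CAD, UCK1 and TYMP changed sign without passing in either fit. NME1, for example, had a log2 difference of 0.26 with all libraries (adjusted p = 0.576) and of -0.42 ± 0.08 without replicate 3 (adjusted p = 0.000148).

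**Figure D4:**
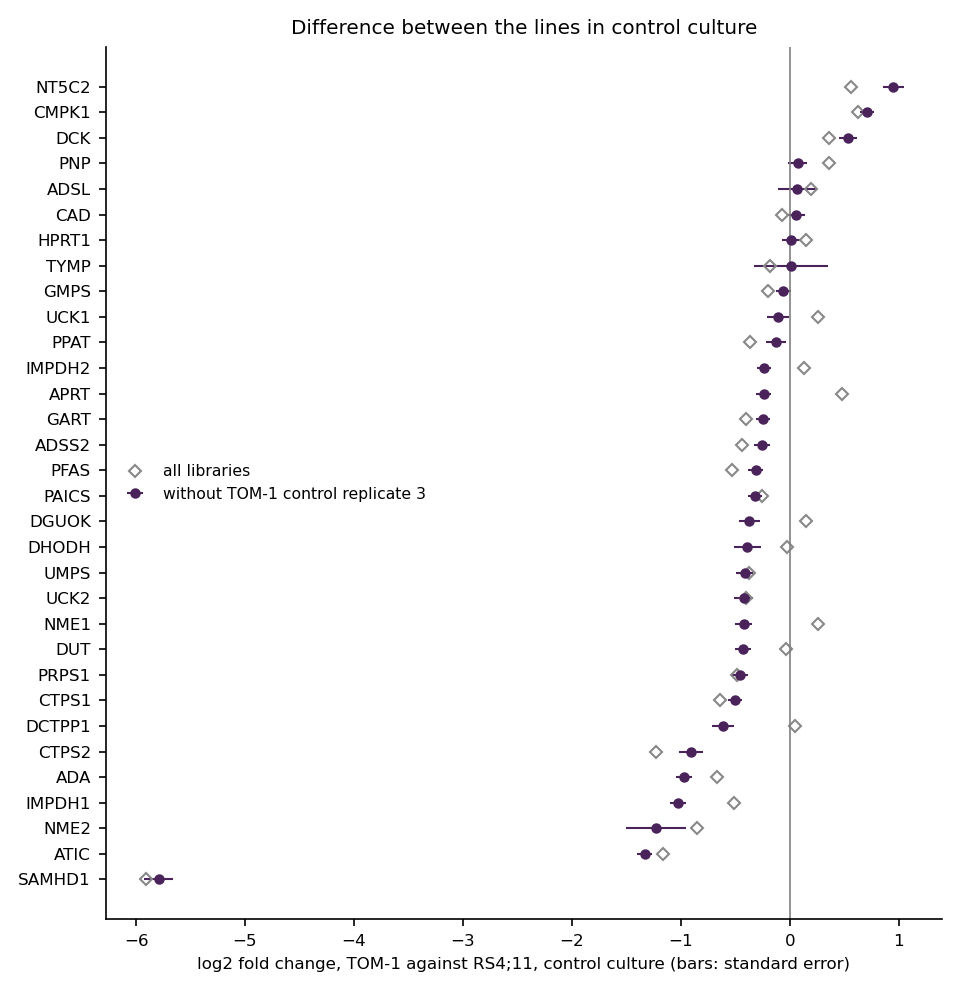
Log2 difference of TOM-1 over RS4;11 in control culture (x, bars are SE) for 32 genes, with circles without TOM-1 control replicate 3 and diamonds with all libraries. SAMHD1 lies furthest to the left at -5.79 and -5.91, CMPK1 lies to the right in both fits, and for IMPDH2, APRT, NME1, DCTPP1 and DGUOK, and for CAD, UCK1 and TYMP close to 0, the circle and the diamond are on opposite sides of 0.

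Genes that feed or surround these enzymes were read from 6 further lists. None of their genes passed in RS4;11 in either fit. The TOM-1 counts of each list stand beside the shares of all genes tested, 15.9% lower and 15.9% higher with all libraries. Without replicate 3 these shares were 19.8% and 21.8%. Of 24 genes of aspartate and folate carbon supply, 23 were tested and 14 passed in TOM-1, 6 higher and 8 lower (17 without replicate 3, 8 higher and 9 lower). GOT1, the cytosolic transaminase that interconverts aspartate and oxaloacetate, was at 38.5, 37.1 and 51.4 CPM in control TOM-1 and at 192, 192 and 191 in treated TOM-1, and RS4;11 ran from 46.1 to 51.5 CPM. GOT1 rose by 2.18 ± 0.14 (adjusted p = 1.66e-06, edgeR) and by 2.34 without replicate 3. ASNS, which turns aspartate into asparagine, was counted at 29, 41 and 0 reads in control TOM-1 and at 113, 149 and 124 in treated TOM-1 (log2 change 2.63, adjusted p = 0.0448, and 2.09 without replicate 3). ASNS lost the call in 9 of the 11 fits that left out another library (adjusted p from 0.0575 to 0.116). Of the folate genes, the reduced folate carrier SLC19A1 fell from 106, 113 and 203 CPM to 42.1, 49 and 52 (log2 change -1.56, and -1.20 without replicate 3). SHMT1, the cytosolic serine hydroxymethyltransferase, fell from 61, 60.2 and 65.1 CPM to 30.6, 28.9 and 28.8 (log2 change -1.08, and -1.05). The mitochondrial enzymes MTHFD2 (0.67, and 0.52 without replicate 3) and MTHFD1L (0.54, and 0.55) rose and the cytosolic MTHFD1 fell (-0.37, and -0.51), although MTHFD1 lost its call in 8 of the 11 fits that left out another library (adjusted p from 0.0505 to 0.124). These last 3 are named after their values were seen.

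Of 7 listed nucleoside transporters 3 were tested, and 2 of them fell in TOM-1, the equilibrative transporters SLC29A1 and SLC29A2 of the plasma membrane. SLC29A1 was at 111, 113 and 156 CPM in control TOM-1 and at 18.6, 22.4 and 21.7 in treated TOM-1 and did not overlap. RS4;11 ran from 113 to 137 CPM. SLC29A1 fell by 2.59 ± 0.16 (adjusted p = 1.43e-06, edgeR), and its log2 change was -2.42 without replicate 3. SLC29A2 went from 25.9, 25 and 33 CPM to 5.99, 7.33 and 7.35 (log2 change -2.02, and -1.88 without replicate 3).

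Of the 12 genes of deoxynucleotide supply, 11 were tested and 8 passed in TOM-1, 2 higher and 6 lower (11 without replicate 3, 2 higher and 9 lower). Over all genes tested 15.9% were lower and 15.9% higher, and 19.8% and 21.8% without replicate 3. TXN, a thioredoxin that reduces ribonucleotide reductase, was at 93, 89.8 and 233 CPM in control and at 38.7, 36.9 and 32.8 in treated TOM-1 (log2 change -1.94, and -1.34 without replicate 3). TK2, the mitochondrial thymidine kinase, rose from 5.34, 6.36 and 5.9 CPM to 12.2, 14.9 and 14.9 (log2 change 1.26 in both fits). Of 18 other kinases and PRPP partners 8 passed, 1 higher and 7 lower (11 without replicate 3, 4 higher and 7 lower). AK4, a mitochondrial adenylate kinase, was at 44.5, 43.8 and 25.9 CPM in control and 13, 12 and 15.5 in treated TOM-1 (log2 change -1.50, and -1.72). NME4, a mitochondrial relative of NME1, went from 167, 171 and 353 CPM to 60.6, 58.3 and 65.4 (log2 change -1.91, and -1.47). MTAP, which salvages adenine from methylthioadenosine and is named after its values were seen, was at 32.9, 31.9 and 21.6 CPM in TOM-1 controls and at 0 in RS4;11, at least 218-fold higher in TOM-1 against a floor of 3 counts per library. Of 24 genes of nucleotide breakdown, 16 were tested and 11 passed, 4 higher and 7 lower (14 without replicate 3, 6 higher and 8 lower). NUDT1, which clears oxidised purine triphosphates, went from 27.8, 23.2 and 85.2 CPM to 10.8, 11.6 and 8.69 (log2 change -2.13, and -1.30). NT5E, the ecto-nucleotidase CD73, rose from 6.39, 4.91 and 4.63 CPM to 13.8, 14 and 12.5 (log2 change 1.33, and 1.24). ADAL also passed higher, from 2, 0 and 0 counts to 8, 8 and 7, too few for a fold.

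**Figure D5:**
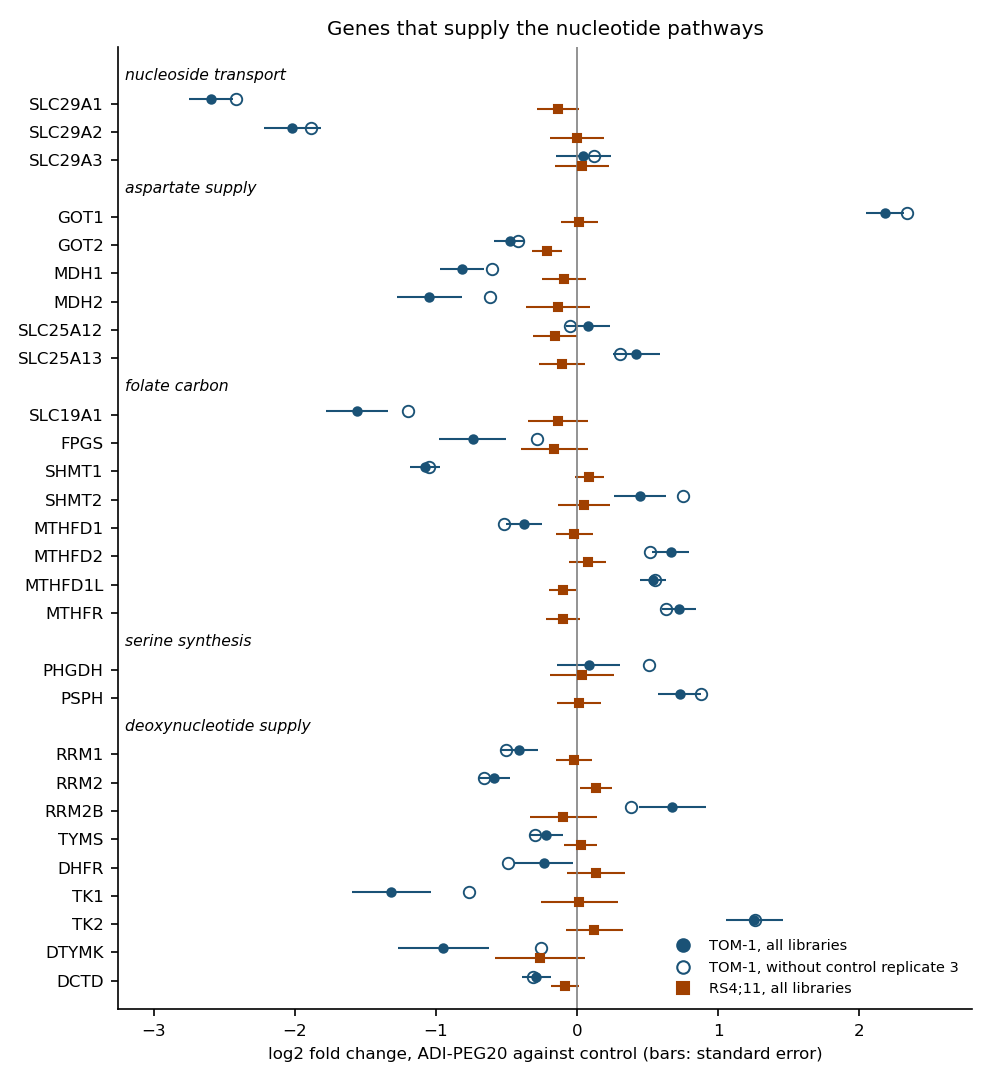
Log2 change with ADI-PEG20 over control (x, bars are SE) for transporters and for genes of aspartate, folate, serine and deoxynucleotide supply, in TOM-1 with all libraries, in TOM-1 without control replicate 3 and in RS4;11. GOT1 at 2.18 and SLC29A1 at -2.59 mark the right and left sides in TOM-1.

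Of 11 transcription factors linked to these enzymes, 7 passed in TOM-1, 3 higher and 4 lower (11 without replicate 3, 6 higher and 5 lower). The shares of all genes tested were 15.9% higher and 15.9% lower, and 21.8% and 19.8% without replicate 3. MXD1, a partner of MAX that opposes MYC, rose from 4.18, 6.75 and 2.87 CPM to 15.6, 22.6 and 19.1 (log2 change 2.05, and 1.82 without replicate 3). MYC, named after its values were seen, was at 462, 426 and 490.4 CPM in control and 305, 289 and 279 in treated TOM-1 (log2 change -0.66, adjusted p = 0.000452, edgeR, and -0.61 without replicate 3). In RS4;11 MYC ran from 452 to 490.0 CPM. MNT and ATF4, also named after their values were seen, fell in TOM-1 with all libraries (adjusted p = 0.0384 and 0.0327, edgeR). Their calls were lost in 5 and 3 of the fits that left out another library. The part of any of these factors in the enzymes' levels was not tested.

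Of the 34 genes, 32 had an entry in the RefSeq promoter table (GRCh38.p14), and 250 bases before each start were searched on both strands. IMPDH2 and ADSL, which fell in TOM-1 in both fits, had no entry and were not searched. The E-box CACGTG lay before 15.6% of the 32 and before 15% of the 20 among them that fell in TOM-1 in both fits. It lay before 11% of the 11381 tested genes in the table. For CCAAT these shares were 31.2%, 35% and 40.9%. The E2F motif, TTTGGCGC or TTTCCCGC, lay before 9.38%, 5% and 3.83%, and the core of the amino acid response element, TGATGNAA, before 0%, 0% and 2.45%. No motif contains another, and the shares are descriptions of the searched windows only.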

How the data were processed

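The genes and the lists were chosen with earlier results of these data known. Poly(A) RNA was sequenced in 12 libraries, grouped by the sample titles. The authors deposited raw counts, whole-number reads per Ensembl gene. The submitters' processing notes name STAR, SAMtools, featureCounts and hg38; strand use and annotation are not given in the sources used here, so reads of overlapping genes may have been dropped or given to either. Overlaps of 10% or more of exonic bases, from GENCODE 29, are stated for the 34 genes. Symbols matched 60463 of 60664 identifiers.

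Counts were tested with edgeR 4.0.16 in R 4.3.3 (filterByExpr, TMM, glmQLFit and glmQLFTest on group means over all 12 libraries, Benjamini-Hochberg). The SE is the log2 change divided by the square root of F. A count of 0 was read as up to 3 counts, and such floors cover counting error only. The code was tested on simulated data. No 2 libraries agreed within sampling noise.

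Values per library are given for genes called in TOM-1 in both fits at a log2 size of at least 1, called in RS4;11, called for the difference in both fits, or fixed by role. Listed genes are named at that size, at most 4 per list. Alternatives were other scalings and filters, DESeq2 1.42.0, a block for the number in the title, each library left out, and only the libraries compared. The block and DESeq2 without TOM-1 control replicate 3 were added after seeing the data.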

Additional observations from a re-analysis of the deposited data

Results flagged for a closer look

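The log2 effect of ADI-PEG20 differed between TOM-1 and RS4;11 by edgeR's interaction test for the genes listed here, which is what marked them for a closer look. Values are TOM-1 minus RS4;11 with all libraries, followed by the value without TOM-1 control replicate 3. Among the 34 genes they were -0.68 and -0.82 for CAD, -1.25 and -0.89 for DHODH, -1.05 and -1.27 for PFAS, and -1.10 and -1.04 for PAICS. IMPDH1 had -1.24 and -0.73, IMPDH2 -1.38 and -1.02, PRPS1 -0.62 and -0.65, HPRT1 -1.03 and -0.90, and APRT -1.56 and -0.84. NME1 had -2.37 and -1.69, DCTPP1 -2.13 and -1.48, ADA -1.07 and -0.78, PNP -1.52 and -1.24, and SAMHD1 -1.04 and -1.15. All 14 passed with and without replicate 3, with adjusted p between 0.000914 for PAICS and 0.0492 for APRT with all libraries. APRT and IMPDH1 were smaller by more than 1.5 times on the log2 scale without it.

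Of the surrounding genes, the difference was -1.85 and -1.25 for TXN, 1.13 and 1.14 for TK2, -1.38 and -1.60 for AK4, -1.84 and -1.40 for NME4, and -1.95 and -1.13 for NUDT1. NT5E had 1.87 and 1.78. For ADAL, with 0 to 2 counts in the TOM-1 controls, the fitted values of 3.53 and 3.19 depend on the prior count and give no fold. The nucleoside transporters had -2.46 and -2.28 (SLC29A1) and -2.02 and -1.88 (SLC29A2). GOT1 had 2.16 and 2.32, SLC19A1 -1.43 and -1.07, SHMT1 -1.17 and -1.13, MXD1 2.34 and 2.12, and MYC -0.66 and -0.62. NUDT1 lost the call without any one treated TOM-1 or RS4;11 library (adjusted p from 0.064 to 0.0917), and TK2 without any of 6 such libraries (from 0.0651 to 0.0809).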

How the results depend on the processing

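In TOM-1, 15 of the 23 called genes passed in all 19 alternatives fixed with the design. The count was 15 of 32 tested with only the TOM-1 libraries in the fit, where fewer samples estimate the spread, and 19 to 27 with each library left out. Other scalings, filters and DESeq2 gave 19 to 24. For RS4;11 it was 0 to 0 with each library left out and 1 (IMPDH1) with the replicate block and with DESeq2 when TOM-1 control replicate 3 was left out. For the difference between the lines the count of 14 became 7 to 22 with each library left out, and 23 with the replicate block and with DESeq2 without replicate 3. Calls over all genes change between fits too. For the difference, 2072 of 17349 genes passed with all libraries and 5567 of 18321 without replicate 3. For the untreated lines these were 6014 and 9681. Shares of all genes in the other fits are not given in this section, so changes of the members' counts cannot be set apart from changes over all genes. Between the untreated lines the count of 13 became 9 to 26 with each library left out, 5 with only the control libraries in the fit, and 27 and 26 with the replicate block and DESeq2 without replicate 3. There 5 of the 34 genes and TXN had a positive value with all libraries and passed lower without TOM-1 control replicate 3, as did TK1, ITPA, MTHFS and ATF4, which the rule does not name. With each library left out the log2 value of IMPDH2 ran from -0.24 to 0.27, that of APRT from -0.24 to 0.70, that of NME1 from -0.42 to 0.48, that of DCTPP1 from -0.61 to 0.29, that of DGUOK from -0.37 to 0.36 and that of TXN from -0.50 to 0.29. With the replicate block and in DESeq2, both without replicate 3, the values were -0.24 and -0.25 for IMPDH2, -0.22 and -0.26 for APRT, -0.40 and -0.44 for NME1, -0.66 and -0.63 for DCTPP1, -0.39 and -0.39 for DGUOK, and -0.51 and -0.52 for TXN. The cause was not tested. The median of the 34 genes ran from -0.76 to -0.66 in TOM-1, from -0.09 to -0.04 in RS4;11 and from -0.71 to -0.61 for the difference. With all libraries the replicate block gave 23, 0, 12 and 15 calls for TOM-1, RS4;11, the difference and the control comparison. Whether libraries of one number share more than that number is not given by the labels and was not settled here. Deviations from the group means correlated by -0.03, -0.01 and -0.06 between same-numbered libraries in TOM-1. In RS4;11 they correlated by 0.09, 0.05 and 0.21, against -0.14 to -0.09 where replicate 3 met replicate 1 or 2. Not every library correlated best with its own number. Depth limits the genes with few TOM-1 counts, NME2, TYMP and SAMHD1 among the 34.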

Other observations

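Further genes of the lists, picked after their values were seen, are given as values. SHMT2, the mitochondrial serine hydroxymethyltransferase, had a log2 change in TOM-1 of 0.45 with all libraries (adjusted p = 0.0833, edgeR) and of 0.75 without TOM-1 control replicate 3 (adjusted p = 1.73e-08), opposite in sign to its cytosolic counterpart SHMT1. PSPH, the last enzyme of serine synthesis, rose by 0.73 and by 0.88. TK1, the cytosolic thymidine kinase of dividing cells, fell by 1.32 and by 0.77, opposite in sign to mitochondrial TK2. RRM2, the small subunit of ribonucleotide reductase, fell by 0.59 and by 0.66.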
